A study of Caenorhabditis elegans with 12 samples.

Results

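Type I piRNAs are small RNAs of the C. elegans germ line that guide the Piwi protein PRG-1. Each one has its own gene, about 21 nt long in the annotation, and most of these genes sit in a pair of large clusters on chromosome IV. RNA polymerase II makes a short capped precursor from every locus, and the precursor is trimmed at both ends to give the mature piRNA, which begins with U. Some type I piRNAs are made mainly while the germ line produces sperm and others mainly while it produces oocytes. The loci described here are the type I piRNA loci that carry the class label Oogenic in the deposited tables. There were 1698 of them among 13458 type I loci, or 12.6%. A further 3647 loci were labelled Spermatogenic, 2 were labelled Gender_neutral, and 8111 had no label and are called unlabelled below. No locus carried both sex labels. The tables do not say how the labels were assigned, and no library of isolated oocytes or sperm was analyzed here, so the label was taken as given and could not be checked against a germ cell type.

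The libraries came from whole adult animals grown at 20 °C. ATTF-6-depleted animals carried GFP::tev::aid::attf-6 on chromosome I, which adds a degron to the AT-hook protein ATTF-6, together with wrdSi51 on chromosome II. That transgene expresses TIR1, the plant protein that sends degron-tagged proteins for degradation, from the germline promoter mex-5p. Auxin controls carried wrdSi51 with untagged attf-6, and both strains were on 4 mM auxin. The study describes growth without auxin until the L4 larval stage, and then on auxin until adulthood. Depletion thus began at L4, and whether this timing bears on the differences between classes of loci was not tested. ΔPeak1 and ΔPeak2 animals each lacked 1 ATTF-6 binding site on chromosome IV, bases 13709294 to 13709476 and bases 14387943 to 14388536, for which the labels name no build. They carried attf-6::3xflag, as did their controls, and no auxin was used. There were 2 PIR-1 libraries in each of these 5 groups, made from RNA treated with the polyphosphatase PIR-1, and 1 CIP-TAP library each of ATTF-6-depleted animals and auxin controls, which is enriched for capped small RNAs (csRNAs). A normalized count is the deposited estimated count divided by the authors' total for the library, per 1000000 reads. The totals lay between 3992305 and 7857706 for PIR-1. For CIP-TAP they were 3804460 in the ATTF-6-depleted and 5040530 in the auxin control library. The study describes the depletion libraries and their controls as biological replicates. For the deletion libraries no source used here says whether they came from separate cultures, so those p-values measure the spread between these libraries, which may be technical.

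All 1698 Oogenic-labelled loci matched an annotated gene of 21 nt in the WBcel235 assembly (Ensembl release 115), 1697 of them on chromosome IV. Cluster II, between 13.5 and 17.5 Mb, held 1554 of them (91.5%), and cluster I, between 4.75 and 7.5 Mb, held 141 (8.30%), which leaves 3 outside both. Cluster I held a larger share of the other loci, with 21% of the Spermatogenic-labelled and 19.3% of the unlabelled ones. The strands were used about evenly, with 828 Oogenic-labelled loci on the plus strand and 870 on the minus strand. The only locus on another chromosome, 21ur-14449 (chromosome II, 8020712 to 8020732, minus strand), was close to absent. Its normalized count was 0 in both ATTF-6-depleted libraries, against 0 and 0.225 in the auxin controls. On the same strand, 951 of the 1698 loci overlapped another type I locus, so reads of neighbors are hard to tell apart there, and 564 had a count that was not whole in at least 1 PIR-1 library.

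The sequences of the piRNAs themselves were not analyzed here. The promoter of a single member, 21ur-2675 (chromosome IV, 15316350 to 15316370, plus strand), was among the sites at which ATTF-6 was measured by ChIP-qPCR. Its primer pair is shown because it marks the only member promoter assayed on its own, and no letters are in capitals since no part of a primer is singled out.
21ur-2675 sense primer: aattggtttttctggcgctat
21ur-2675 antisense primer: tccgccaaagaggctaaata
The mature 21ur-2675 had normalized counts of 0.929 and 1.45 in the ATTF-6-depleted libraries, against 62.9 and 88.5 in the auxin controls. Its log2 fold change was -6.05 ± 0.33 (SE between libraries, n = 2 each, edgeR adjusted p = 2.83e-49). In the strains with attf-6::3xflag it was at 113 and 89.3 in ΔPeak1, 92.4 and 116 in ΔPeak2, and 116 and 105 in the controls.

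Most Oogenic-labelled loci were detected in animals with ATTF-6, and their levels were spread over several orders of magnitude. Between 1591 and 1622 of the 1698 had a count in each PIR-1 library other than the ATTF-6-depleted ones, which had 907 and 952. The median locus had a mean of 0.207 in the ATTF-6-depleted libraries, 10.5 in the auxin controls and 12.7 in the attf-6::3xflag controls. In the attf-6::3xflag controls 310 loci (18.3%) reached a mean of 100, against 1.67% of the Spermatogenic-labelled and 5.54% of the unlabelled loci. A few loci held much of the sum, with 13.6% in the 10 most abundant loci and 51.8% in the 100 most abundant loci of the auxin controls. Levels in the attf-6::3xflag and the auxin controls were ranked alike across all 1698 loci (Spearman's rho 0.940). This is a description across loci, which share libraries and are not replicates.

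The first comparison asks what happened to these piRNAs when ATTF-6 was depleted from the germ line. Their summed normalized count was 1651 and 1938 in the ATTF-6-depleted libraries, against 90752 and 109784 in the auxin controls. The means were 1794 ± 203 and 100268 ± 13458 (SD, n = 2 each), a 55.9-fold lower level after depletion and a log2 ratio of -5.80 ± 0.18 (SE). The groups lay far apart, but 2 libraries against 2 cannot give less than p = 0.33 in an exact two-sided permutation test, which was the value found. Their part of the type I total was 14.3% and 15.0% in the ATTF-6-depleted libraries, against 27.8% and 28.2% in the auxin controls. In whole animals, fewer germ cells and less RNA per cell cannot be told apart. Scaling by TMM gave a log2 ratio of -4.66, and it put the median of all tested features at -0.28, where the authors' totals put it at -1.39.

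**Figure D1:**
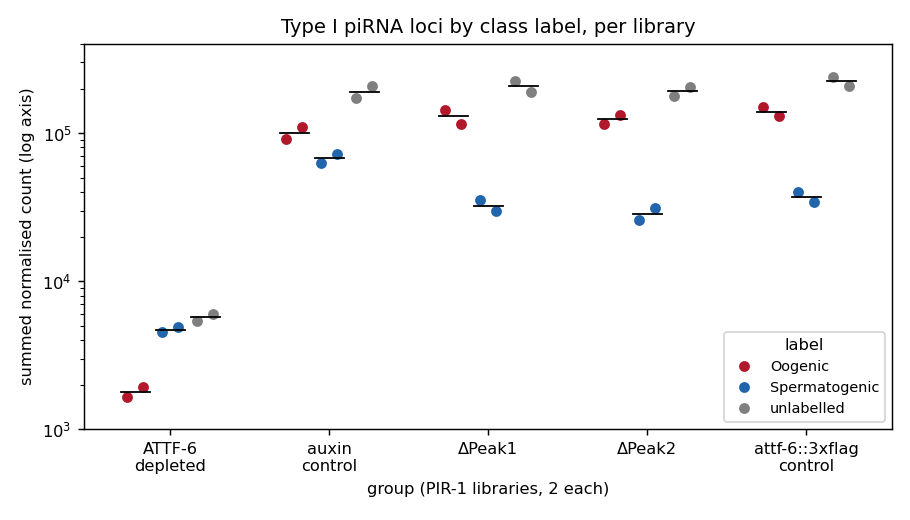
Summed normalized count (log axis) of type I piRNA loci by class label, with 1 point per PIR-1 library and a bar at the mean of each group of 2. The Oogenic-labelled sum was 1651 and 1938 after ATTF-6 depletion, below both other classes, and 90752 and 109784 in the auxin controls, where it lay above the Spermatogenic-labelled sum; in ΔPeak1, ΔPeak2 and their controls it stayed between 115331 and 149123.

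Nearly all tested loci fell. In edgeR's quasi-likelihood test, 1378 of the 1698 loci passed the filter on low values (a normalized count averaging 0.5 or more in these 4 libraries). Of these, 1376 fell (adjusted p under 0.05, Benjamini-Hochberg over all 33715 features tested), a share of 99.9%. The share called lower was 96.7% for tested Spermatogenic-labelled loci, 97.3% for tested unlabelled loci and 54.6% for all tested features. No Oogenic-labelled locus was called higher by edgeR or DESeq2, and none was above 0 at an unadjusted edgeR p under 0.05. DESeq2 gave no adjusted p for 62 of the loci. Of all features, edgeR called 12.7% higher. The median log2 fold change of the tested Oogenic-labelled loci was -5.91, against -1.39 over all features. For 790 of the 1378 the ATTF-6-depleted mean was itself below 0.5, so they passed through the controls alone. Both ATTF-6-depleted libraries held 3 counts or fewer at 807 of the tested loci. With these set to the bound that 3 counts allow, the median was -4.70. The 320 loci that were not tested summed to 1.65 and 3.23 in the ATTF-6-depleted libraries, against 93.2 and 114.5 in the auxin controls, 0.104% of the members' control total. The 2 tested loci that were not called, which were picked out after their values were seen, were scarce in all 4 libraries. 21ur-4629 had 0.207 and 0.484 in the ATTF-6-depleted libraries, against 0.255 and 1.12 in the auxin controls, and these ranges overlapped. 21ur-2142 had 0 and 0.484, against 1.02 and 0.899.

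**Figure D2:**
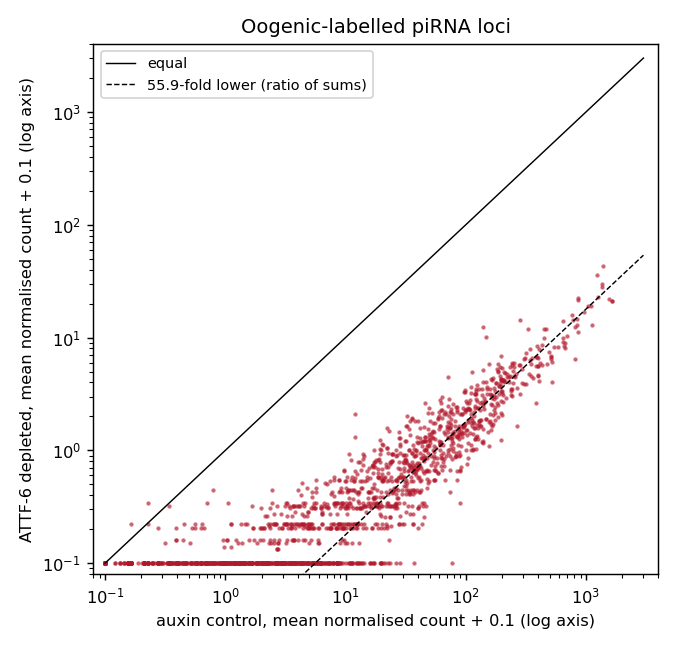
Mean normalized count of each of the 1698 Oogenic-labelled loci in 2 ATTF-6-depleted libraries (vertical axis) and 2 auxin control libraries (horizontal axis), both with 0.1 added and on log axes. Points follow the dashed line of 55.9-fold lower levels from abundant loci down to about 10 in the controls, below which most depleted values are at or near 0.

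The 8 most abundant members, ranked over the auxin and attf-6::3xflag controls together, were all called lower. 21ur-3380 (chromosome IV, 15564401 to 15564421, minus strand) had 22.1 and 21.5 in the ATTF-6-depleted libraries, against 1464 and 1650 in the auxin controls. Its log2 fold change was -6.15 ± 0.09 (SE, n = 2 each, edgeR adjusted p = 3.43e-88). 21ur-3149 (16568431 to 16568451, minus strand) had 9.91 and 15.7, against 1042 and 1199. It was 87.4-fold lower, the largest fold of the 8 most abundant loci. At the other end of these 8, 21ur-739 (14714756 to 14714776, minus strand) was 32.5-fold lower, with 37.2 and 48.2 after depletion, against 1309 and 1461 in the controls. The groups did not overlap for any of these piRNAs.

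21ur-3545 (16906664 to 16906684, minus strand) was the first of the 8 in this ranking and fell to 11.8 and 19.8, against 600 and 940 in the auxin controls. In the attf-6::3xflag controls it was at 5262 and 3873, so the control strains themselves differed in its level. The other 4 of the 8 were 21ur-3063, 21ur-1367, 21ur-807 and 21ur-562, which were 58.1-fold, 48.2-fold, 57.9-fold and 77.6-fold lower. In the auxin controls alone, the overlapping 21ur-10047 and 21ur-1791 had still higher means of 1644 and 1638, and they were 77.7-fold and 77.8-fold lower. All 8 lie in cluster II, and 6 of them overlap another type I locus.

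The loci at the extremes of the fold change were mostly of modest abundance. Among loci with a mean of at least 10 in the auxin controls, 21ur-3270 (14631279 to 14631299, plus strand) had the most negative fitted change. It had no count in either ATTF-6-depleted library, against 66.0 and 87.9 in the auxin controls, so it was at least 114-fold lower when 3 counts per library are taken as the limit (edgeR adjusted p = 8.27e-61). 21ur-5821, 21ur-6405 and 21ur-5053 were also without a count after depletion and were at least 54.9-fold, 41.7-fold and 39.1-fold lower. The smallest decreases belonged to 21ur-3756, 21ur-1504, 21ur-10935 and 21ur-5949. 21ur-3756 (15841816 to 15841836, minus strand) had 1.86 and 2.18 in the ATTF-6-depleted libraries, against 9.04 and 14.8 in the auxin controls, a log2 fold change of -2.52 ± 0.35 (SE, n = 2 each, edgeR adjusted p = 3.46e-09). 21ur-5949 (16976555 to 16976575, minus strand) had the highest depleted level of the 4, with 8.47 and 16.2, against 96.0 and 184. It remained 11.3-fold lower, and its groups did not overlap.

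Between these extremes the fold change varied little. For the 310 loci with at least 100 in the attf-6::3xflag controls, libraries that took no part in the depletion comparison, the log2 fold change had a median of -5.87 and 10th and 90th percentiles of -6.69 and -5.18. It ran from -11.67 for 21ur-3270, a fitted value for a locus with no count left, to -3.26 for 21ur-1504. Spermatogenic-labelled loci chosen the same way (61 loci) had a median of -4.15 with percentiles of -4.84 and -3.50. Unlabelled loci (449) had a median of -5.34 with percentiles of -6.31 and -4.38. The 10th percentile of the Spermatogenic-labelled loci thus lay above the 90th percentile of the Oogenic-labelled ones. Among members with at least 1 in the auxin controls (1376 loci), depleted and control levels kept their order, with Spearman's rho of 0.901. The points share their libraries.

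Mature piRNAs of cluster I members were 70.4-fold and those of cluster II members 55.3-fold lower after depletion. Cluster I members summed to 70.7 ± 9.7 in the ATTF-6-depleted libraries and 4979 ± 774 in the auxin controls (SD, n = 2 each), a log2 ratio of -6.14 ± 0.21 (SE). Those of cluster II summed to 1723 ± 193 and 95289 ± 12684, a log2 ratio of -5.79 ± 0.18. The ratio of the cluster I to the cluster II sum was 0.0402 and 0.0417 in the ATTF-6-depleted libraries, against 0.0513 and 0.0530 in the auxin controls. The libraries did not overlap, and the difference on the log2 scale was -0.35 ± 0.03 (SE, n = 2 each, exact two-sided permutation p = 0.33, the smallest possible). Plus-strand members had a log2 ratio of -5.84 ± 0.18 and minus-strand members one of -5.78 ± 0.18. Over the 11 windows of 0.5 Mb on chromosome IV with at least 20 Oogenic-labelled loci, the log2 ratio ran from -6.49 to -5.62. The same kind of windows gave -4.09 to -2.94 for Spermatogenic-labelled loci (13 windows), a range that lay wholly above that of the Oogenic-labelled loci.

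The second question is whether Oogenic-labelled loci were lowered more than other type I loci. They were, in every library pairing. Spermatogenic-labelled loci summed to 4719 ± 297 in the ATTF-6-depleted libraries and 67693 ± 6995 in the auxin controls (SD, n = 2 each), 14.3-fold lower. Unlabelled loci summed to 5713 ± 441 and 190134 ± 24113, 33.3-fold lower. The ratio of the Oogenic-labelled to the Spermatogenic-labelled sum, from which the scaling of a library cancels, was 0.366 and 0.393 in the ATTF-6-depleted libraries, against 1.45 and 1.51 in the auxin controls. The difference of the log2 ratios was -1.96 ± 0.06 (SE, n = 2 each), with no overlap of the libraries and p = 0.33 in an exact two-sided permutation test, the smallest value possible here. Against unlabelled loci the ratio was 0.306 and 0.322 after depletion and 0.524 and 0.530 in the auxin controls, a difference of -0.75 ± 0.04 (SE, n = 2 each) with the same exact p of 0.33.

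Oogenic-labelled loci also had the most negative ratio of the 3 classes in each bin of abundance. Loci were binned by their mean in the attf-6::3xflag controls, another strain, so loci that share a bin need not be alike in the auxin controls. In the bin of 1 to 10, for example, 515 Oogenic-labelled loci summed to 2061 and 2529 in the auxin controls. The 1392 Spermatogenic-labelled loci of that bin summed to 13582 and 15832. In each of 6 bins, from below 0.5 to 1000 and more, the Oogenic-labelled loci had a log2 ratio between -6.33 and -5.51, resting on few counts in the lowest 2 bins. The bin of 100 to 1000 held 293 of them, which summed to 976 and 1132 in the ATTF-6-depleted libraries, against 55121 and 66658 in the auxin controls, a log2 ratio of -5.85 ± 0.17 (SE). In that bin the Spermatogenic-labelled loci (60) had -4.14 ± 0.10 and the unlabelled loci (417) had -5.19 ± 0.14. The difference between the Oogenic-labelled and unlabelled loci was -0.66 ± 0.05 there. It was -1.60 ± 0.11 in the bin of 1 to 10, -0.82 ± 0.03 in the bin of 10 to 100, and -0.30 ± 0.06 in the bin of 1000 and more, which held 17 Oogenic-labelled and 32 unlabelled loci (SE, n = 2 libraries each, exact permutation p of 0.33 in each bin). From 1 upward the difference was thus smaller in each more abundant bin. The bins below 0.5 and of 0.5 to 1 had differences of -2.08 and -2.78, but their Oogenic-labelled loci held only 4.00 and 4.83 counts, and 5.50 and 3.33 counts, in the ATTF-6-depleted libraries, so counting error is large there. In these 2 bins the Spermatogenic-labelled and unlabelled loci had nearly equal ratios. The bin of 1000 and more held 1 Spermatogenic-labelled locus only.

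**Figure D3:**
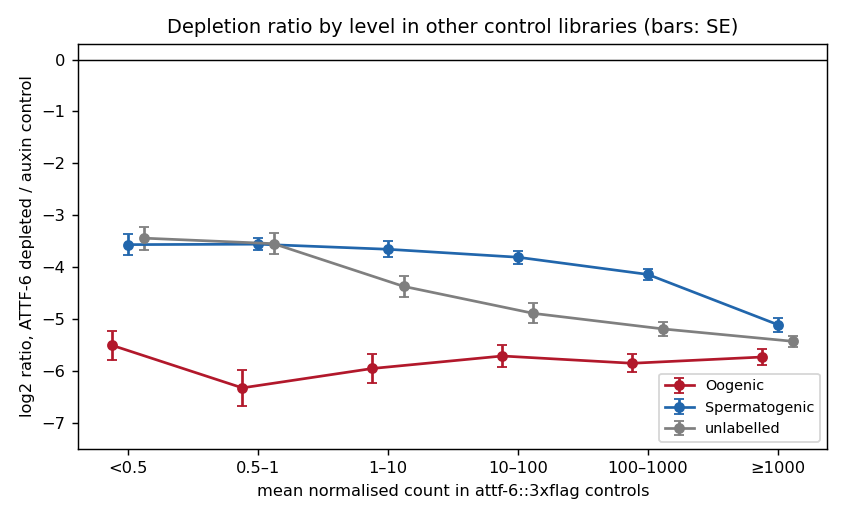
Log2 ratio of the summed normalized count in ATTF-6-depleted over auxin control libraries (vertical axis, bars show the SE from 2 libraries a group) for type I loci binned by their mean normalized count in the attf-6::3xflag controls (horizontal axis). Oogenic-labelled loci lie between -6.33 and -5.51 in all 6 bins, whereas the unlabelled loci run from -3.44 in the lowest to -5.43 in the highest bin.

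Other germline signals were also lower in the same libraries. The miR-35 family, miRNAs of oocytes and embryos, summed to 16155 and 10904 in the ATTF-6-depleted libraries, against 99948 and 96713 in the auxin controls, a log2 ratio of -2.86. All 7 members listed were called lower, with log2 fold changes of -3.66 to -2.14, where 54.6% of all tested features were called lower. All 7 were called lower under TMM, miRNA and DESeq2 scaling too. miR-42-3p, the muscle miRNA miR-1-3p and the neuronal miRNA miR-124-3p were not analyzed here. siRNAs at 3974 genes labelled CSR, which mark germline-expressed genes, summed to 111574 and 81122, against 345609 and 303374, a log2 ratio of -1.75. Their median log2 fold change was -1.78, near the -1.39 of all features, and -0.66 under TMM. Of 3964 tested, 3639 were called lower and 39 higher, against 2305 and 313 under TMM. Of all features, 54.6% were called lower and 12.7% higher with the authors' totals. The shares of all features under TMM and DESeq2 scaling are not given here. The summed Oogenic-labelled piRNAs had a more negative ratio than either, and the part of these shifts in the piRNA decrease was not tested.

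In the small RNA libraries, the machinery for piRNA production could be followed only through siRNAs antisense to its genes. These are not a measure of mRNA. The study also sequenced mRNA of ATTF-6-depleted and control animals, which was not analyzed here. Of 15 listed genes 14 were tested. In the edgeR fit 13 were called lower and 1 higher, where 54.6% of all features were called lower. TMM scaling gave 9 lower and 1 higher, and the share of all features under TMM is not given here. The median log2 fold change of these genes was -1.97, against -1.39 over all features. Under TMM these medians were -0.84 and -0.28, and henn-1 and tost-1 were above 0. siRNAs of prde-1, a gene of the upstream transcription complex at piRNA clusters, had -2.53 (edgeR adjusted p = 9.20e-18) and those of prg-1, the Piwi gene, had -2.04 (adjusted p = 1.10e-15). Both were also called lower under TMM, at -1.41 and -0.91. snpc-1.3, whose product is needed for piRNA transcription during sperm production, was the one with more siRNAs, at 1.07 (edgeR adjusted p = 0.000234), and 2.20 under TMM.

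The CIP-TAP libraries address the step before the mature piRNA. A capped small RNA that starts 2 nt upstream of a piRNA is read as its precursor. Of the 1698 loci, 1406 had a read at this position in at least 1 library, PIR-1 libraries included. Summed over these, csRNAs had a normalized count of 304 in the ATTF-6-depleted library, against 151505 in the auxin control, a 498-fold lower level and a log2 ratio of -8.96. As shares of the library total these were 0.0304% (Wilson 95% interval 0.0287% to 0.0322%) and 15.2% (15.1% to 15.2%). The intervals cover counting error only, and with 1 library a group the difference has no replicate check. Spermatogenic-labelled loci were 26.8-fold lower, with 1503 against 40245, and unlabelled loci were 134-fold lower, with 2153 against 288810. Oogenic-labelled loci had the largest fold of the 3 classes here. By cluster, their csRNAs were 292-fold lower in cluster I and 512-fold lower in cluster II, the other order than for the mature piRNAs. PIR-1 reads at the same position were 37.5-fold lower in cluster I and 26.1-fold lower in cluster II.

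csRNAs at single loci were also mostly lower. In the auxin control library 736 Oogenic-labelled loci had a csRNA level of at least 10, and 732 of them (99.5%) were at least 10-fold lower in the ATTF-6-depleted library, where 29.3% of all 14370 features with such a control level were. The other type I classes also had high shares, with 84.9% of 630 Spermatogenic-labelled and 97.4% of 1641 unlabelled loci at such a control level. All these loci were chosen by the same single control library from which the fold is taken, which favors a decrease. Their median control levels were 67.3 (Oogenic-labelled), 26.1 (Spermatogenic-labelled) and 52.6 (unlabelled), so the shares are not matched for level. No count at all was left at 528 of the 736. The 4 Oogenic-labelled loci that missed the 10-fold line, named here after their values were seen, were 21ur-100, 21ur-13971, 21ur-5457 and 21ur-7136. They were 9.81-fold, 8.45-fold, 7.66-fold and 9.58-fold lower. Their depleted levels rest on 5 to 13 counts. The highest csRNA of the Oogenic-labelled loci came from 21ur-1437 (chromosome IV, 16043481 to 16043501, minus strand), with 4.47 in the ATTF-6-depleted library, against 3078 in the auxin control. 21ur-4359 (16562712 to 16562732, minus strand) followed with 6.31, against 3038. 21ur-4881 had 4.99, against 2795, and 21ur-5139 had 2.37, against 2588, which makes the 4 precursors 689-fold, 482-fold, 560-fold and 1094-fold lower in the order given.

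**Figure D4:**
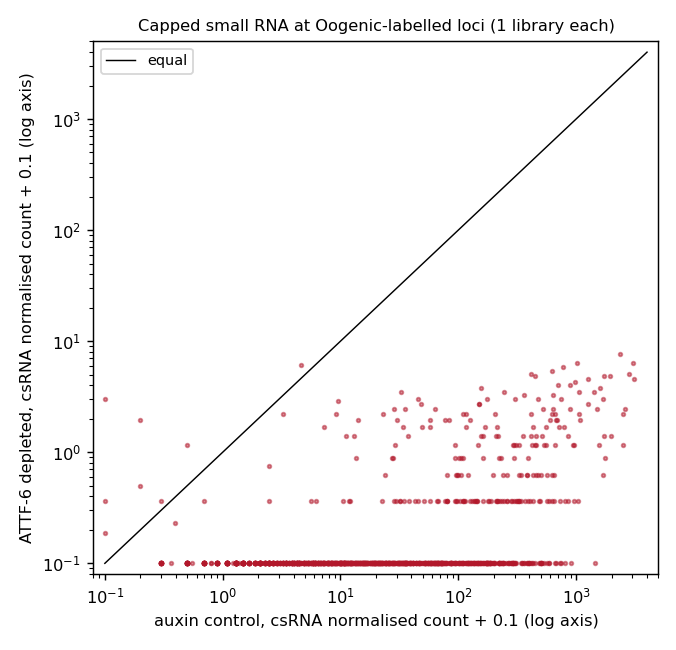
csRNA normalized count at each Oogenic-labelled locus with a csRNA in either CIP-TAP library, in the ATTF-6-depleted library (vertical axis) against the auxin control library (horizontal axis), both with 0.1 added and on log axes, 1 library each. Of the 736 loci with at least 10 in the control library, 732 are at least 10-fold lower in the depleted one, and points on the bottom row have no count in the depleted library.

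Much precursor did not always mean much mature piRNA. 21ur-1437, first by csRNA, had only 0.207 and 0.363 of the mature piRNA in the ATTF-6-depleted PIR-1 libraries, against 18.6 and 20.0 in the auxin controls. 21ur-4359, with nearly the same csRNA level, had 22.9 and 22.3, against 1086 and 1441. Both mature piRNAs were called lower, at log2 fold changes of -5.75 and -5.80. 21ur-739 had 1309 and 1461 of mature piRNA in the auxin controls, at a csRNA level of 412. That level was below the 3038 of 21ur-4359 but well above the median of 11.5 over the 1406 loci. Over the 1406 loci the csRNA level of the control CIP-TAP library and the mature level of the auxin control PIR-1 libraries had a Spearman's rho of 0.592. The pair of values shares the strain but not the library, and 21ur-1437 and 21ur-739 overlap another type I locus.

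Reads that start 2 nt upstream of a piRNA were also seen in the PIR-1 libraries, at far lower levels. They are called csRNAs below by position alone. The study cloned capped RNAs by CIP-TAP, so no cap was shown for these reads. Their sum at Oogenic-labelled loci was 73.3 ± 3.0 in the ATTF-6-depleted and 1941 ± 252 in the auxin control libraries (SD, n = 2 each), 26.5-fold lower, with libraries that did not overlap and an exact two-sided permutation p of 0.33. csRNAs were 8.64-fold lower at Spermatogenic-labelled and 3.55-fold lower at unlabelled loci, so the last 2 classes stood in the other order than in the CIP-TAP libraries. That order did not hold inside the clusters. Spermatogenic-labelled and unlabelled csRNAs were 9.07-fold and 9.11-fold lower in cluster II, and 5.15-fold and 8.18-fold lower in cluster I. Of 82 Oogenic-labelled csRNA loci that passed the filter, 62 (75.6%) were called lower by edgeR, where 54.6% of all features were. The share was 81.8% of 33 Spermatogenic-labelled and 72.1% of 165 unlabelled csRNA loci. For 65 of the 82 the ATTF-6-depleted mean was below 0.5, so they passed through the controls alone. At 68 of the 82 both ATTF-6-depleted libraries held 3 counts or fewer, so low counts limit these values. At Oogenic-labelled loci the fold was smaller than in the CIP-TAP libraries, which come from another preparation, and the 2 were not compared by a test.

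The third comparison asks whether deleting a single ATTF-6 binding site in cluster II changed these piRNAs. The ΔPeak1 sum was 143613 and 115815 and the ΔPeak2 sum was 115331 and 133332, against 149123 and 130823 in the attf-6::3xflag controls that both share. The libraries of each deletion overlapped the controls. The log2 ratio was -0.11 ± 0.18 in ΔPeak1 and -0.17 ± 0.14 in ΔPeak2 (SE, n = 2 each, exact two-sided permutation p of 0.667 for each). PIR-1 reads at the csRNA position, for which no cap was shown, summed to 3282 ± 347 in ΔPeak1, 3238 ± 445 in ΔPeak2 and 3725 ± 642 in the controls (SD, n = 2 each). The libraries again overlapped.

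No Oogenic-labelled locus was called in ΔPeak1. Of 1514 tested, edgeR called none, where it called 0.0858% of all features lower and 0.0636% higher. DESeq2 also called none, but it gave no adjusted p for 469 of these loci. At an unadjusted edgeR p under 0.05, 126 loci were below and 6 above 0. Of all 31462 features tested, 1629 were under that p. The median log2 fold change was -0.14, against -0.03 over all features. The 3 with the smallest p were 21ur-1494, 21ur-4429 and 21ur-3707, at adjusted p of 0.244, 0.276 and 0.281 (edgeR). 21ur-4429 (15136240 to 15136260, minus strand), the most abundant of them, had 226 and 297 in ΔPeak1, against 417 and 428 in the controls, a log2 fold change of -0.69 ± 0.20 (SE). It also had 207 and 256 in ΔPeak2. Leaving out ΔPeak1 replicate 1 gave 17 called loci and leaving out ΔPeak1 replicate 2 gave 36, with 21ur-4429 among them. Each of these fits has a single ΔPeak1 library, which is assumed to vary like the other groups. The share of all features called in these fits is not given here.

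In ΔPeak2, 5 of 1514 loci were called, all lower, a share of 0.330% where 0.245% of all features were called lower and 0.0636% higher. The 5, of which the last 2 are named after their values were seen, were 21ur-2594, 21ur-1791, 21ur-10047, 21ur-2582 and 21ur-2199. 21ur-2594 (14645094 to 14645114, plus strand) had 335 and 385 in ΔPeak2, against 688 and 597 in the controls, a log2 fold change of -0.84 ± 0.14 (SE, n = 2 each, edgeR adjusted p = 0.0255). 21ur-1791 and 21ur-10047 start 1 nt apart on the plus strand (15071837 and 15071836) and had nearly the same counts, so they are 1 observation. 21ur-1791 had 393 and 491, against 800 and 816 in the controls. 21ur-2582 had 48.7 and 49.6, against 88.5 and 107. 21ur-2199 lies in cluster I (5829007 to 5829027, minus strand), 8558915 bases from the deletion, and had 19.5 and 18.8, against 41.1 and 43.6. In ΔPeak1 the same loci had log2 fold changes of -0.51 (21ur-2594), -0.47 (21ur-1791), -0.42 (21ur-2582) and -0.28 (21ur-2199), with the controls in common. The calls depended on single libraries, with a lone library of a group again assumed to vary like the others. No Oogenic-labelled locus was called when control replicate 1 or 2, or ΔPeak2 replicate 1 or 2, was left out, whereas 74 and 75 were called without ΔPeak1 replicate 1 and 2, which share the fit. TMM scaling gave 2 calls, and 21ur-2199 was the only one of the 5 among them (adjusted p = 0.0389). The share of all features called is not given here for TMM or for the fits without 1 library.

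Loci next to the deleted sites had values on both sides of 0. Up to 5 kb from the middle of the interval deleted in ΔPeak1 lay 13 Oogenic-labelled loci, all tested, 7 below and 6 above 0, with a median log2 fold change of -0.28. Their sum was 929 and 790 in ΔPeak1, against 995 and 844 in the controls, and these ranges overlapped (exact two-sided permutation p = 0.667). The tested locus nearest to it, 21ur-6696 (13711251 to 13711271, minus strand), lies 1774 bases away. It had 24.2 and 22.2 in ΔPeak1, against 31.8 and 24.3 in the controls (edgeR adjusted p = 0.953). Next came 21ur-15198, which overlaps it, with 0.841 and 1.05 in ΔPeak1, against 1.57 and 3.01.

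Around the ΔPeak2 interval 4 loci lay within 5 kb, and all 4 were above 0 in the edgeR fit, though 2 were below 0 under scaling to miRNA reads, and 1 was without control replicate 1 or ΔPeak2 replicate 2. Their sum was 174 and 182 in ΔPeak2, against 148 and 150 in the controls. These did not overlap, and the log2 ratio was 0.26 ± 0.03 (SE, n = 2 each, exact two-sided permutation p = 0.33). The tested locus nearest to it, 21ur-2243 (14387450 to 14387470, minus strand), ends 472 bases from the deleted interval. It had 31.6 and 30.7 in ΔPeak2, against 16.5 and 19.8 in the controls, a log2 fold change of 0.78 ± 0.13 (SE) that did not pass (edgeR adjusted p = 0.258). Without ΔPeak1 replicate 1 or 2 in the fit its adjusted p was 0.0463 or 0.0460. 21ur-3156, 2860 bases away, had 75.3 and 92.7, against 78.8 and 75.6, and these ranges overlapped. The 4 loci had a median log2 fold change of 0.19, where all tested Oogenic-labelled loci in ΔPeak2 had -0.22.

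**Figure D5:**
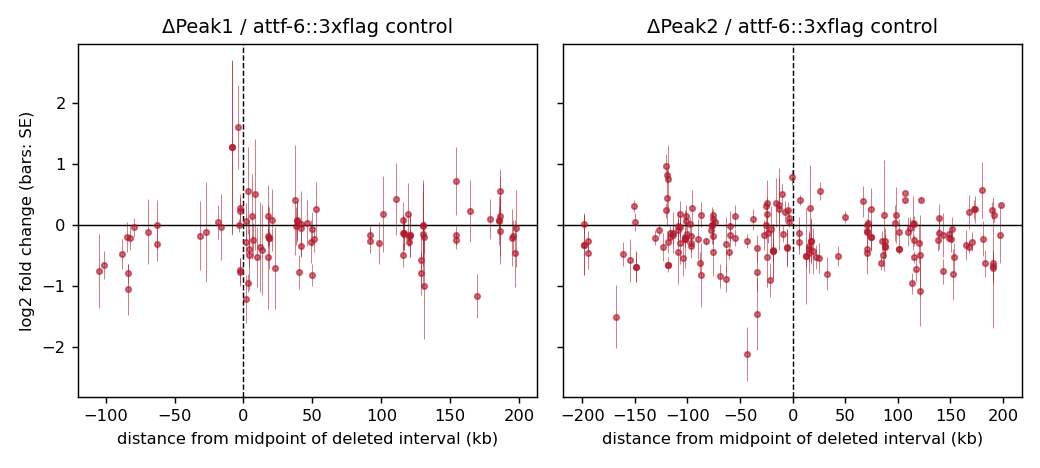
Log2 fold change (vertical axis, bars show the SE between 2 libraries a group) of tested Oogenic-labelled loci against their distance in kb from the midpoint of the deleted interval (horizontal axis, dashed line at 0), for ΔPeak1 on the left and ΔPeak2 on the right, each over the shared attf-6::3xflag controls. Loci within 5 kb lie on both sides of 0 in ΔPeak1 (7 below, 6 above), and the 4 in ΔPeak2 lie above 0.

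The balance of the labelled classes differed between the control strains themselves. Oogenic-labelled over Spermatogenic-labelled sums were 1.45 and 1.51 in the auxin controls with wrdSi51 and 3.71 and 3.81 in the attf-6::3xflag controls without auxin. Strain, auxin and experiment cannot be told apart in this difference. Within the deletion experiment the same ratio was 4.09 and 3.90 in ΔPeak1 and 4.44 and 4.28 in ΔPeak2.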

How the data were processed

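Members are rows with feature and biotype piRNA whose class holds the token Oogenic. Members, lists and tests were chosen with earlier results of these data known. The authors trimmed reads (Trim Galore), aligned them to WormBase WS279 with Bowtie without mismatches and counted, at piRNA loci, uniquely placed sense reads. The deposited estimated counts, some fractional, were used with the deposited normalized signal, from which the authors' library total was recovered. Tables list only features with a count, so an unlisted feature was taken as 0. edgeR 4.0.16 (R 4.3.3) was run on counts rounded to whole numbers, with the authors' totals as library size, over features with a mean normalized count of at least 0.5 (4 libraries for depletion, 6 for the deletions), and p-values were adjusted over all of them at 0.05. SEs come from log2(normalized count + 0.5). The fit was tested on simulated data. Coordinates were joined by gene ID. Loci were named by a rule: the 8 most abundant, the 4 most and 4 least lowered with at least 10 in controls, the 3 smallest p and the 2 nearest loci for each deletion, the 4 highest csRNAs, loci off chromosome IV, and assayed piRNAs. Alternatives were DESeq2 1.42.0, TMM, miRNA scaling, other filters, a replicate block and leaving out libraries. Floors (3 counts) and intervals cover counting error only, since reads carry no molecular identifiers.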

Additional observations from a re-analysis of the deposited data

How the results depend on the processing

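The depletion results kept their direction under every setting run: the count of loci called lower was 1288 to 1408 without 1 library each and 0 were called higher, and the summed log2 ratio was -5.94 to -5.66 without 1 library each. The differences from Spermatogenic-labelled and unlabelled loci were -2.01 to -1.91 and -0.79 to -0.71 in the same way. Restricting the sum to members that overlap no other type I locus, a setting chosen after seeing the data, gave -5.79. The csRNA log2 ratio in the CIP-TAP libraries was -8.47 when scaled to summed counts. The ΔPeak1 count, 0 as reported, was 21 with no filter and 0 to 36 without 1 library each, and the ΔPeak1 summed log2 ratio ran from -0.27 to 0.037, the sign changing without ΔPeak1 replicate 2. The ΔPeak2 count, 5 as reported, was 2 under TMM scaling, 48 scaled to miRNA reads, 11 with DESeq2, 84 with no filter, 14 with all 10 PIR-1 libraries in 1 fit and 0 to 75 without 1 library each, and its summed log2 ratio ran from -0.28 to -0.07. The cause was not tested. DESeq2 gave no adjusted p for 513 of the loci in ΔPeak2. The share of all features called under these other settings is not given here, so the counts cannot be read as particular to the members.

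Replicate numbers are shared between groups, but nothing says that a number marks a shared batch. With a replicate block, 1374 loci were called lower after depletion, 0 in ΔPeak1 and 0 in ΔPeak2, and the summed log2 ratios were -5.80, -0.12 and -0.17. Deviations of same-numbered libraries correlated at 0.46, -0.08 and -0.15 in the 3 comparisons. The median log2 fold change near ΔPeak2 under settings chosen after seeing the data was 0.0012 with miRNA scaling and 0.31 with TMM. A group left with 1 library was assumed to vary like the others. Depth limits scarce loci, and both depleted libraries held 3 counts or fewer at 807 of the 1378 loci tested for depletion. This includes loci with more than 10 normalized counts in controls, such as 21ur-5821 with 32.9 and 41.0.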
